A study of Rattus norvegicus with 9 samples.

Results

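Interferon-induced genes are genes that cells switch on when an interferon, a secreted antiviral signal, reaches its receptor. The set described here holds 9 of them, Bst2, Ifit2, Ifit3, Isg15, Irf7, Mx1, Mx2, Usp18 and Ifi27, picked by their gene symbols from the 18733 genes of the deposited tables. All 9 were found, and all 9 passed the filter on low counts that left 14840 genes for testing. RNA was taken from the hippocampus of male rats, with 1 library per rat and 3 rats per group. The taVNS group held rats with cognitive impairment after middle cerebral artery occlusion (MCAO, a surgical stroke model) that were given transcutaneous auricular vagus nerve stimulation, an electrical stimulation of the outer ear, for 14 days. The PSCI group (post-stroke cognitive impairment) held rats with the same occlusion and impairment that were fed routinely for 2 weeks. The control group was fed routinely. Both stroke groups were admitted on a low spontaneous alternation rate and a low cognitive index, relative to a limit set from the control mean, and then assigned at random. Strain, age, sham surgery, sham stimulation and the hemisphere sampled are not given in the labels.

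Type I interferons bind a receptor of the subunits Ifnar1 and Ifnar2, whose kinases Jak1 and Tyk2 activate a complex that contains Stat2 and Irf9. That complex binds a short DNA element, the interferon-stimulated response element, in front of its target genes. Irf7, itself a target, amplifies the production of interferon, while Usp18 damps the receptor and removes the ubiquitin-like protein Isg15 from its substrates. Bst2 (tetherin), the Mx proteins and the Ifit proteins act on viruses directly. In the brain, microglia, astrocytes and vessel cells are all known to express such genes.

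In levels scaled for gene length (RPKM, the authors' reads per kilobase and sequenced read total), Ifi27 was the most abundant member in each group. It averaged 108 RPKM in taVNS, 58.4 RPKM in PSCI and 54.4 RPKM in control rats. Ifit3, at 1.91 RPKM in taVNS, 0.927 RPKM in PSCI and 0.957 RPKM in control rats, was the least abundant. Unless RPKM is named, levels below are CPM, counts scaled to a common library size with edgeR's TMM factors, and they compare a gene with itself across libraries.

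Libraries held from 13747381 to 15415684 counts, so 3 counts correspond to 0.195 to 0.218 CPM. Markers of meninges and fibroblasts, tissue that lies against the hippocampus, averaged 4.89 log2 CPM in taVNS replicate 3 and 4.77 log2 CPM in PSCI replicate 2, against 1.99 to 2.66 log2 CPM in the other libraries. Markers of hippocampal neurons were present in every library, at 6.67 log2 CPM in PSCI replicate 2 and 7.52 to 8.21 log2 CPM elsewhere.

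PSCI against control addresses the state of these genes after stroke with impairment. Of the 9 interferon-induced genes 1, Bst2, rose in PSCI, and none (0) fell. Over all 14840 genes 7.71% were called higher and 2.14% lower, or 9.85% in either direction, so 1 of 9 is close to the background share. The median log2 fold change of the 9 genes was 0.17, against 0.00 over all genes tested. Calls rest on edgeR's two-sided quasi-likelihood test over all 9 libraries, with p-values adjusted by the Benjamini-Hochberg method over all genes tested and a threshold of 0.05.

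Bst2 encodes tetherin, a membrane protein that holds budding virus particles on the cell surface. Its level was 7.09, 11.3 and 9.46 CPM in the PSCI libraries, against 2.14, 2.90 and 3.09 CPM in the control libraries. Each PSCI value lay above each control value, as it did for 16.2% of all genes tested. The log2 fold change was 1.78 ± 0.24 (SE), or 3.43-fold with a 95% interval of 2.34 to 5.01, and the adjusted p was 0.00376 by edgeR. Bst2 passed the threshold in each of the 20 alternative settings tried, with adjusted p of at most 0.0238 and log2 fold changes of 1.60 to 1.94. In RPKM the levels were 13.5, 23.2 and 18.2 in PSCI and 3.98, 5.52 and 5.80 in control rats.

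Most microglial markers were also higher in PSCI than in control rats. The 11 genes of the microglia list summed to 635 to 975 CPM in the PSCI libraries and 309 to 398 CPM in the control libraries, with none (0) of them at a count of 0 in a group. Of the 11, 7 rose, against 7.71% of all genes tested, a share that also stands beside the lists below. Tmem119, a marker of resting microglia, averaged 13.5 ± 1.63 CPM in PSCI and 19.99 ± 3.53 CPM in control rats (SD, n = 3 each). It was not called, and each PSCI value lay below each control value, as for 11.3% of all genes. The perivascular macrophage and monocyte markers summed to 54.9 to 302 CPM in PSCI and 29.5 to 39.4 CPM in control libraries, where Ms4a7 and Pf4 were at 0 counts, and 3 of 6 tested rose. The 9 reactive astrocyte markers, which summed to 5646 to 10486 CPM in PSCI and 1260 to 1920 CPM in control rats, all rose (9 of 9). Of 5 tested lymphocyte markers 2 rose. Cd2, Cd8a, Cd79a and Cd79b were at 0 counts in all control libraries, while Cd3d was at 0 counts in all PSCI libraries. Summed over the PSCI libraries, Cd2, Cd79a and Cd79b had only 10, 4 and 8 counts, and Cd8a had 202. The part of these cell type markers in the Bst2 result was not tested. In tissue RNA more cells of a type and more RNA per cell cannot be told apart.

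The sequence in front of Bst2 is shown here with those of Ifit3, Irf7 and Ifi27 because these windows hold the core of the response element, in genes that were called (Bst2) and were not called in PSCI. The windows run from 250 bases before to 50 bases after the gene start, are taken from the RefSeq promoter table of the build GRCr8, and are written 5′ to 3′ on the gene's strand. Capitals mark 2 copies of GAAA that lie 2 bases apart, searched on both strands (on the other strand 2 copies of TTTC), and overlapping matches run together.
Bst2, chr16:18254918-18255217, minus strand: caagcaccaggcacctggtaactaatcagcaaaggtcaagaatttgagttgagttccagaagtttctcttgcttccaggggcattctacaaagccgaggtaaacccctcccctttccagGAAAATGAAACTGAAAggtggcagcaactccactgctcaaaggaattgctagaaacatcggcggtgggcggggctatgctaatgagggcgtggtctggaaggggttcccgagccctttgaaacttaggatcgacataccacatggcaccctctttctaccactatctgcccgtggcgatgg
Ifit3, chr1:241527076-241527375, plus strand: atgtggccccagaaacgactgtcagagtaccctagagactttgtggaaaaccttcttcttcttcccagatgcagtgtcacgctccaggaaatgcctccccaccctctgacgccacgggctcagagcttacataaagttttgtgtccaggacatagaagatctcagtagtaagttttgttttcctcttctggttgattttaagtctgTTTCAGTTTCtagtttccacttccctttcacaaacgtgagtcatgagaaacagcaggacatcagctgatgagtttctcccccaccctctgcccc
Irf7, chr1:205799974-205800273, minus strand: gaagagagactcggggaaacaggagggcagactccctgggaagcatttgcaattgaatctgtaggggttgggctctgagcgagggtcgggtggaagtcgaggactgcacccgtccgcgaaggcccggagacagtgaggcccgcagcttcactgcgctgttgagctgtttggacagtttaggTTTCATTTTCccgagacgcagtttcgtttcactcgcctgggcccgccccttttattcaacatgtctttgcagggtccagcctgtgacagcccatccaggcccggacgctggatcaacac
Ifi27, chr6:128355062-128355361, plus strand: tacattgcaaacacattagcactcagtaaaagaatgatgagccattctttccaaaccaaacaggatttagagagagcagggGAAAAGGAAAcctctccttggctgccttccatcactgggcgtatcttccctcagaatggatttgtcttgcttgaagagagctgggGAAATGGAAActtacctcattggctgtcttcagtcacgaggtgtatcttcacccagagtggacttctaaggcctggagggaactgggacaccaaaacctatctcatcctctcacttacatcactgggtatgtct

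Windows were matched by gene identifier for 5 of the 9 genes, and 4 of these 5 held the motif, as did 3.92% of all 33469 windows of 300 bases. The Bst2 window held 2 overlapping matches, the first beginning at position -131 and the second at position -125 from the gene start. The window of Irf7 had its match at -69 to -60 and that of Ifit3 at -44 to -35. The gamma-activated sequence TTCNNNGAA, which reads the same on both strands, occurred in the Bst2 window at -137 to -129, where it overlaps the first response element match by 3 bases, and in 8.87% of all windows. The window of Mx1 held neither motif. A match describes these letters alone and not binding.

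**Figure D1:**
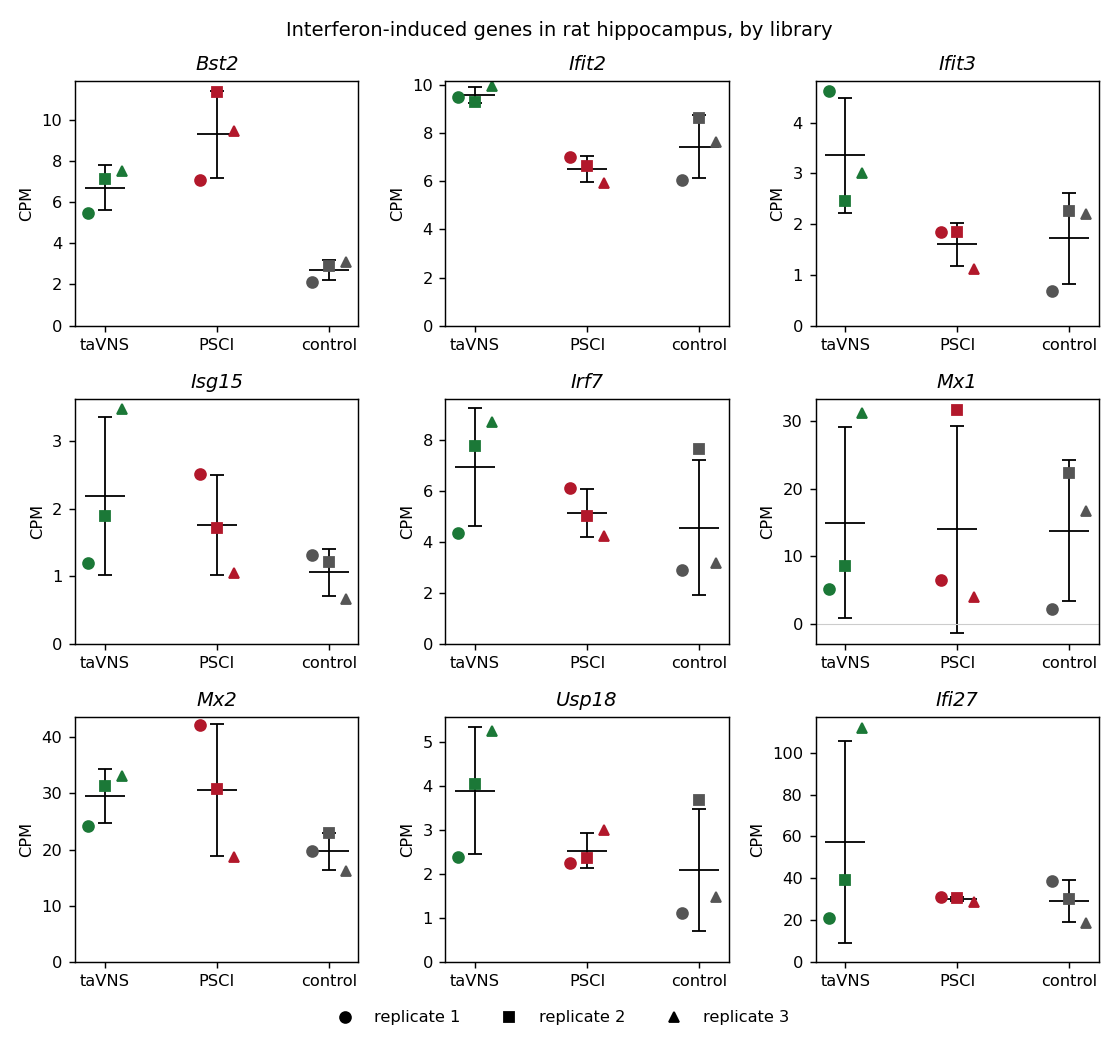
CPM of the 9 interferon-induced genes in each library (circles, squares and triangles for replicates 1, 2 and 3) of taVNS, PSCI and control rats, with horizontal lines at the group mean and error bars of 1 SD (n = 3). Bst2 lies between 5.47 and 11.3 CPM in the stroke groups and below 3.1 CPM in control, while the groups of Irf7, Isg15, Usp18, Mx1 and Ifi27 overlap.

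Irf7, the transcription factor that amplifies interferon production, stood at 6.13, 5.03 and 4.24 CPM in PSCI libraries and 2.90, 7.65 and 3.16 CPM in control libraries. The PSCI values lay inside the control range, and the log2 fold change was 0.17 ± 0.40 (adjusted p = 0.844, edgeR). Isg15, the ubiquitin-like modifier, was at 2.52, 1.72 and 1.04 CPM in PSCI and 1.31, 1.204 and 0.661 CPM in control libraries. Its groups overlapped, with a log2 fold change of 0.73 ± 0.49 (adjusted p = 0.407, edgeR). Usp18, its protease, averaged 2.54 ± 0.41 CPM in PSCI and 2.09 ± 1.40 CPM in control rats (SD, n = 3 each). Its log2 fold change was 0.28, with a 95% interval of -0.77 to 1.33.

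Ifit2 and Ifit3, whose proteins bind viral RNA and the translation machinery, were not called. Ifit2 averaged 6.53 ± 0.55 CPM in PSCI and 7.45 ± 1.29 CPM in control rats (SD, n = 3 each). Its 95% interval for the log2 fold change ran from -0.57 to 0.19, so a rise of more than 1.14-fold lies outside it. Ifit3 averaged 1.60 ± 0.42 CPM in PSCI and 1.72 ± 0.89 CPM in control rats, with a wider interval of -1.15 to 0.94. Ifi27, an interferon-induced protein of mitochondria, averaged 29.997 ± 1.07 CPM in PSCI and 29.1 ± 10.1 CPM in control rats, with an interval of -1.13 to 1.22.

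Mx2, a dynamin-like GTPase with antiviral activity, was at 42.2, 30.7 and 18.7 CPM in PSCI libraries and 19.8, 22.9 and 16.2 CPM in control libraries. The lowest PSCI library lay within the control range. The log2 fold change of Mx2 was 0.63 ± 0.27 (adjusted p = 0.183, edgeR), and without PSCI replicate 3 it was 0.89 with an adjusted p of 0.0482.

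taVNS against PSCI sets stimulated against unstimulated impaired rats. None of the 9 interferon-induced genes was called in this comparison by edgeR (0). The unadjusted p was under 0.05 for 2 of the 9, close to the 21.1% of all genes, and DESeq2 called 1, Ifit2. Over all genes 0.842% were called higher and 4.91% lower in taVNS, or 5.75% in either direction. The median log2 fold change of the 9 genes was 0.44, against 0.00 over all genes tested, and 7 of the 9 had a positive fold change.

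Ifit2 stood at 9.53, 9.30 and 9.97 CPM in the taVNS libraries and 7.02, 6.63 and 5.94 CPM in the PSCI libraries. The groups did not overlap. Its log2 fold change was 0.56 ± 0.17 with an adjusted p of 0.0901 by edgeR, and 0.0369 by DESeq2. Ifit3 was at 4.62, 2.45 and 3.01 CPM in taVNS and 1.84, 1.85 and 1.11 CPM in PSCI libraries, again without overlap, with a log2 fold change of 1.07 ± 0.45 (adjusted p = 0.216, edgeR). These 2 of 9 genes were the members that lay higher in each taVNS library, which held for 10.6% of all genes tested.

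Bst2 was at 5.47, 7.13 and 7.51 CPM in taVNS libraries, against 7.09, 11.3 and 9.46 CPM in PSCI libraries. The groups overlapped in their range. The log2 fold change was -0.47 ± 0.23, with a 95% interval of -0.99 to 0.05 and an adjusted p of 0.277 by edgeR, an interval that includes 0. Irf7 had a log2 fold change of 0.44 ± 0.40, Usp18 of 0.62 ± 0.45 and Isg15 of 0.31 ± 0.47, none past the threshold. Mx2 averaged 29.5 ± 4.77 CPM in taVNS and 30.5 ± 11.8 CPM in PSCI rats (SD, n = 3 each).

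Ifi27 was at 20.7, 39.2 and 112 CPM in the taVNS libraries and 30.8, 30.4 and 28.8 CPM in the PSCI libraries. Only taVNS replicate 3 lay far above the PSCI range among these libraries, and that library also had the highest meningeal marker level. PSCI replicate 2, with a similar meningeal level, was at 30.4 CPM of Ifi27. The log2 fold change of Ifi27 was 0.93 ± 0.52 (adjusted p = 0.342, edgeR), and 0.02 without taVNS replicate 3. Isg15 and Mx1 also turned with that library, with log2 fold changes of -0.18 and -0.98 without it. The part of the meningeal markers in these values was not tested.

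**Figure D2:**
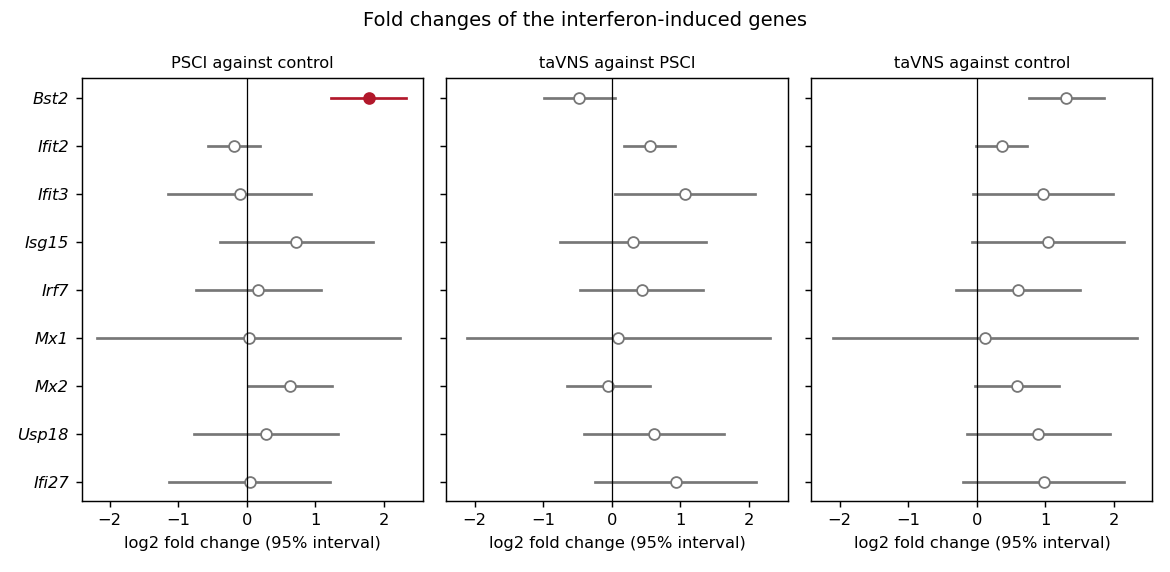
Log2 fold changes of the 9 genes (points) with 95% intervals (lines) in PSCI against control, taVNS against PSCI and taVNS against control. The filled red point is the 1 call, Bst2 in PSCI against control at 1.78, and in taVNS against control all 9 points lie above 0 while 1 interval, that of Bst2, excludes 0.

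taVNS against control asks whether these genes stayed raised in the stimulated rats, and shares its libraries with both comparisons above. No gene was called in this comparison by edgeR, neither among the 9 (0) nor among all 14840 (0%). The unadjusted p was under 0.05 for 1 of the 9 and for 557 of all genes, or 3.75%. DESeq2 called 10 genes, among them Bst2, and limma-voom called 0. All 9 log2 fold changes were positive, as were 7505 of all 14840. The median of the 9 was 0.90, against 0.00 over all genes tested. The 9 genes share the same libraries, and taVNS replicate 3 was the highest of its group for 8 of them. Without that library the log2 fold change was -0.99 for Mx1 and 0.04 for Ifi27.

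Bst2 was the 1 member called in PSCI, so the question applies in the first place to it. Its levels of 5.47, 7.13 and 7.51 CPM in taVNS libraries each lay above the control levels of 2.14, 2.90 and 3.09 CPM. The log2 fold change was 1.31 ± 0.24, or 2.47-fold with a 95% interval of 1.69 to 3.62. The unadjusted p was 4.23e-04, and the adjusted p was 1.00 by edgeR and 0.0140 by DESeq2. Over the 20 alternatives the adjusted p ran from 0.0140 to 1.00, under the threshold by DESeq2 alone, while the log2 fold change stayed between 1.16 and 1.44. Bst2 thus stood above control in all 3 stimulated rats, without passing the test over all genes that was used here. The microglial markers summed to 412 to 489 CPM in taVNS and 309 to 398 CPM in control libraries, with all 11 fold changes positive. Of the 11 genes 4 lay higher in each taVNS library, against 5.74% of all genes. None of the 11 was called by edgeR (0). An unadjusted p under 0.05 by edgeR held for 3 of the 11, against 3.75% of all genes. The part of these markers in the Bst2 level was not tested.

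Beside Bst2, 3 of the other members did not overlap between taVNS and control, so that 4 of 9 lay higher in each taVNS library, against 5.74% of all genes, while 0 of 9 lay lower in each, against 5.4%. The 9 members were chosen with earlier results of these data known. Ifit2 averaged 9.60 ± 0.34 CPM in taVNS and 7.45 ± 1.29 CPM in control rats, with a log2 fold change of 0.37 ± 0.17. Ifit3 averaged 3.36 ± 1.13 CPM in taVNS and 1.72 ± 0.89 CPM in control rats (log2 fold change 0.96 ± 0.45). Mx2 averaged 29.5 ± 4.77 CPM in taVNS and 19.7 ± 3.36 CPM in control rats (log2 fold change 0.59 ± 0.27). Each of these 3 had an adjusted p of 1.00 by edgeR and an interval that included 0.

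The other members overlapped. Isg15 averaged 2.19 ± 1.18 CPM in taVNS and 1.06 ± 0.35 CPM in control rats, and its log2 fold change of 1.04 became 0.53 without taVNS replicate 3. Usp18 averaged 3.90 ± 1.45 CPM in taVNS and 2.09 ± 1.40 CPM in control rats, and Irf7 6.95 ± 2.31 CPM in taVNS and 4.57 ± 2.67 CPM in control rats. Ifi27 averaged 57.3 ± 48.2 CPM in taVNS and 29.1 ± 10.1 CPM in control rats, with a log2 fold change of 0.98 that became 0.04 without taVNS replicate 3.

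Mx1, a near relative of Mx2, varied more within groups than between them. It was at 5.19, 8.603 and 31.2 CPM in taVNS, 6.48, 31.6 and 3.92 CPM in PSCI and 2.14, 22.4 and 16.8 CPM in control libraries. Each group held low and high libraries, up to 10.5-fold apart in control. Its within-group SD of 1.57 on the log2 scale exceeded that of 99.6% of the 1807 genes of a similar level (within 0.5 log2 CPM). None of its 3 comparisons gave a log2 fold change beyond 0.13, with standard errors of 0.98.

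The share of Mx1 in the counts of Mx1 and Mx2 fell into separate ranges. It was 48.5% (95% exact binomial interval 45.3 to 51.8) in taVNS replicate 3 and 50.7% (47.5 to 53.9) in PSCI replicate 2. In control replicates 2 and 3 it was 49.4% (45.4 to 53.3) and 50.8% (46.1 to 55.5). In the other libraries it was 17.7% and 21.5% in taVNS replicates 1 and 2, 13.3% and 17.3% in PSCI replicates 1 and 3, and 9.77% in control replicate 1, with no interval above 25.1%. These intervals cover counting error alone.

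The deposited counts of Mx1 and Mx2 were not whole numbers in 2 libraries. In control replicate 1 they were 31.08 and 286.92, which sum to 318, and in PSCI replicate 1 they were 95.22 and 618.78, which sum to 714. Fractional counts that sum to whole numbers show that reads were divided between these genes in those libraries. The part of read assignment in the separate ranges of the Mx1 share was not tested and cannot be read from the counts, so each printed level of Mx1 or Mx2 is uncertain in every library. With both counted as 1 gene, a choice made after seeing the data, the sum was 29.3, 40.0 and 64.2 CPM in taVNS, 48.7, 62.3 and 22.6 CPM in PSCI and 21.9, 45.3 and 33.0 CPM in control libraries. The summed groups overlapped, with a log2 fold change of 0.41 in PSCI against control (adjusted p = 0.587, edgeR).

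**Figure D3:**
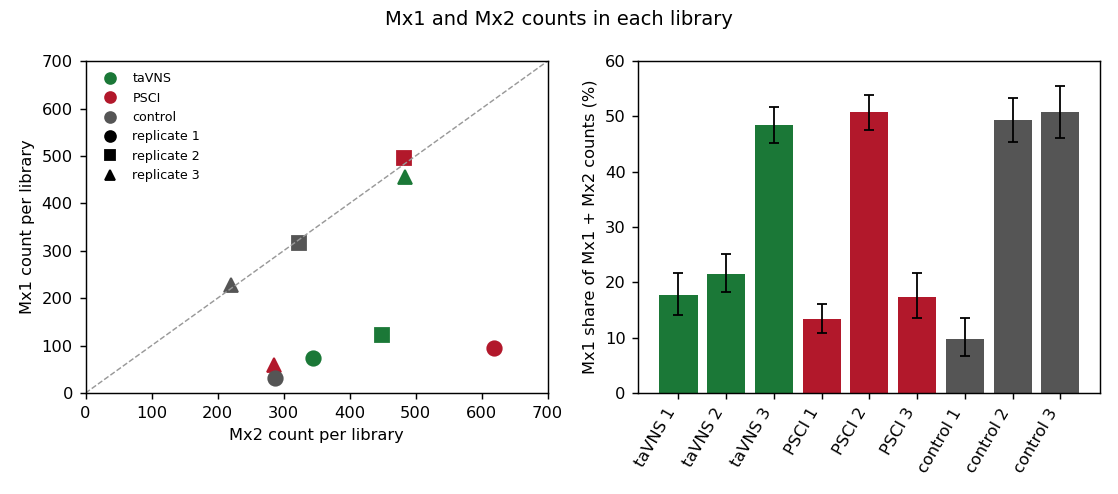
Left, deposited counts of Mx1 against Mx2 in each library, with a dashed line at equal counts. Right, the share of Mx1 in their summed counts with 95% exact binomial intervals; taVNS replicate 3, PSCI replicate 2 and control replicates 2 and 3 lie at 48.5% to 50.8% and the other libraries at 9.77% to 21.5%.

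The members also differed in how far single rats of a group lay apart. The within-group SD of Ifi27 (0.77 on the log2 scale) was above that of 98.6% of genes of a similar level and that of Mx2 (0.40) above 91.2%, while those of Bst2 (0.29) and Ifit2 (0.16) were above 43.8% and 18.0%. In taVNS, replicate 3 was highest for 8 of the 9 genes and replicate 1 lowest for 7. In PSCI, replicate 1 was highest for 5 and replicate 3 lowest for 7. In control, replicate 2 was highest for 6 and replicate 1 lowest for 6, among them Irf7, Usp18, Ifit3 and Mx1.

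Averaged over the 9 genes after each was centred on its own mean, the level was -0.10, 0.30 and 0.89 log2 CPM in taVNS, 0.10, 0.28 and -0.32 in PSCI and -0.83, 0.12 and -0.44 in control libraries. The ranges of all 3 groups overlapped. Irf7 followed this average most closely, with a root mean square difference of 0.23 log2 CPM over the 9 libraries, and Mx1 least closely, with 1.01. Among 13464 other named genes of at least 1 CPM, the nearest were Tbx2 (0.15), Atp13a5 (0.20), Egflam (0.22), Gper1 (0.22), Adgra2 (0.22) and Flt1 (0.22). Symbols of unnamed loci (LOC, RGD, AABR or AC followed by digits) were left out beforehand. Flt1, a receptor of vascular endothelial growth factor, averaged 63.7 CPM in taVNS, 55.3 CPM in PSCI and 41.4 CPM in control rats. The endothelial markers, a list that holds Flt1, summed to 235 to 321 CPM in taVNS, 308 to 377 CPM in PSCI and 152 to 288 CPM in control libraries. Against control, 9 of these 9 markers had a positive log2 fold change in taVNS. Against PSCI only 2 of 9 did, with a median of -0.30, so most did not share the order of Flt1. The part of the endothelial markers in the members' levels was not tested.

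Of the other genes of the interferon system, 108 were listed, 99 were found and 91 passed the filter. They were chosen with earlier results of these data known, so shares set against all genes describe these lists alone. In PSCI against control 25 of the 91 rose (27.5%, against 7.71% of all genes) and none (0) fell, with a median log2 fold change of 0.65. With control replicate 1 or 3 left out this count was 13, with PSCI replicate 1 left out it was 39, and with PSCI replicate 3 left out it was 15. It was 19 when the libraries high in meningeal markers, PSCI replicate 2 and taVNS replicate 3, were both left out. Calls over all genes moved as well, from 1461 with all libraries to 922 and 548 without control replicates 1 and 3. Without PSCI replicate 1 they were 2255, and without PSCI replicate 3 they were 785. In taVNS against PSCI 11 of the 91 fell (12.1%, against 4.91% of all genes) and none (0) rose. That count became 22 when PSCI replicate 1 was left out, 7 for control replicate 2 or PSCI replicate 2, 6 for PSCI replicate 3, 3 for taVNS replicate 1 or 2 and 5 for taVNS replicate 3. Calls over all genes went from 854 to 1707 without PSCI replicate 1 and to 488 without control replicate 2. They were 375 without PSCI replicate 3, and 172, 254 and 313 without taVNS replicates 1, 2 and 3. In taVNS against control none was called by edgeR (0). The unadjusted p by edgeR was under 0.05 for 18 of the 91, against 3.75% of all genes. The median log2 fold change of the 91 was 0.39, with 83 positive. Of the 91, 15 lay higher in each taVNS library and 1 lower in each, against 5.74% and 5.4% of all genes. Of the reactive astrocyte markers 9 of 9 rose in PSCI and fell in taVNS, where they summed to 1532 to 2200 CPM. Microglial markers summed to 412 to 489 CPM in taVNS libraries, and 5 of 11 fell there against PSCI while 1 rose. Their part in the pathway counts was not tested.

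The interferon genes that could be read gave almost no counts. Of 10 listed ligands 3 were found, none of them passed the filter, and none had more than 3 counts in a library. The ligands Ifnb1, Ifng, Ifna2, Ifna5, Ifnk, Ifnl1 and Ifnl3 had no entry in the deposited data, so their levels are unknown here. Ifna1 had 2, 1 and 0 counts in taVNS, 0, 1 and 0 in PSCI and 1, 3 and 1 in control libraries. With so few counts, no difference between the groups was detectable at this depth.

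Among 15 receptors and signalling genes 3 rose in PSCI (20%, against 7.71% of all genes). In taVNS 2 of these fell (13.3% of the 15, against 4.91% of all genes). Ifngr1, a subunit of the interferon gamma receptor, was at 64.5, 79.2 and 79.1 CPM in PSCI libraries, against 44.5, 44.3 and 44.4 CPM in control libraries. The control rats lay between 44.3 and 44.5 CPM and below each PSCI rat, with a log2 fold change of 0.74 ± 0.11 (adjusted p = 0.00468, edgeR). In taVNS libraries it was at 44.6, 44.5 and 52.4 CPM, a fall of 0.66 on the log2 scale against PSCI (adjusted p = 0.0117, edgeR). That call was lost without taVNS replicate 1 or 2 and with only the 6 libraries compared, at up to 0.0687 by edgeR. Socs3, a feedback inhibitor of cytokine receptors, was at 9.88, 59.2 and 19.6 CPM in PSCI and 1.04, 1.27 and 0.882 CPM in control libraries (adjusted p = 0.00367, edgeR), and at 1.47, 1.40 and 1.57 CPM in taVNS libraries. Limma-voom gave adjusted p of 0.0584 and 0.0813 for its rise and fall.

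The subunits of the type I interferon receptor did not pass the threshold, although Ifnar2 did so without PSCI replicate 1. Ifnar1 was at 108, 127 and 108 CPM in PSCI and 86.4, 101 and 90.9 CPM in control libraries, with a log2 fold change of 0.30 ± 0.10 (adjusted p = 0.0913, edgeR). Ifnar2 had a log2 fold change of 0.46 ± 0.15 (adjusted p = 0.0979, edgeR). Stat2 and Irf9, which act below that receptor, had log2 fold changes of 0.35 ± 0.17 and 0.66 ± 0.23 in PSCI against control. Neither passed the threshold (adjusted p = 0.231 and 0.105, edgeR), although Irf9 did so with replicate number added to the fit as a block.

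Interferon regulatory factors beside Irf7 numbered 7, too few for 1 call to stand out. Of these 7, 1 rose in PSCI and fell in taVNS, against 7.71% and 4.91% of all genes. This was Irf8, a factor of microglia and other myeloid cells, at 21.7, 59.0 and 47.5 CPM in PSCI and 9.11, 7.01 and 6.02 CPM in control libraries (log2 fold change 2.53 ± 0.34, adjusted p = 0.00342, edgeR). In taVNS libraries it was at 13.7, 14.4 and 16.7 CPM, between the other groups. Its fall against PSCI (adjusted p = 0.0287, edgeR) was lost in 10 of 20 alternatives. Among these were limma-voom, only the 6 libraries compared, and leaving out any 1 taVNS library, control replicate 2, PSCI replicate 2 or PSCI replicate 3.

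Of 15 tested nucleic acid sensors and adaptors 5 rose in PSCI, namely Tlr3, Tlr7, Tlr8, Cgas and Myd88, and 3 of these, Tlr7, Tlr8 and Myd88, fell in taVNS. Over all genes 7.71% rose in PSCI and 4.91% fell in taVNS. The call of Tlr3, a receptor for double-stranded RNA, had an adjusted p of 0.0348 by edgeR and was lost in 8 of 20 alternatives, at up to 0.129, among them without control replicate 1 or 3, PSCI replicate 2 or 3, or taVNS replicate 2. Tlr7, an endosomal receptor for RNA, was at 11.6, 23.3 and 15.7 CPM in PSCI and 5.80, 6.66 and 5.80 CPM in control libraries. In taVNS libraries it was at 6.52, 7.34 and 6.97 CPM, close to control. Its fall was lost in 5 of 20 alternatives, among them without any 1 taVNS library and with only the 6 libraries compared. Cgas, the sensor of DNA in the cytosol, was at 1.64, 5.80 and 3.002 CPM in PSCI and 0.276, 0.567 and 0.808 CPM in control libraries. That call was lost without control replicate 1 or 2 and by limma from RPKM with 1 added. Myd88, the adaptor of most Toll-like receptors, differed by 2.27 on the log2 scale between the PSCI and control means of the counts but by 1.37 in the authors' RPKM, so its size of change depends on the table read. Tlr8, another endosomal RNA receptor, was at 0.210, 0.420 and 0.410 CPM in taVNS, 1.70, 7.07 and 7.05 CPM in PSCI and 0, 0.212 and 0 CPM in control libraries. Its fall was lost in 6 of 20 alternatives, among them limma-voom and leaving out PSCI replicate 3 or any 1 taVNS library.

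The ISG15 system beyond the members gave 1 call among 4 tested genes. With 4 genes, 1 call is too few to stand out from the 7.71% of all genes called higher in PSCI. Uba7, the enzyme that activates Isg15, was at 5.32, 6.56 and 5.55 CPM in PSCI and 0.966, 2.97 and 1.69 CPM in control libraries (log2 fold change 1.63 ± 0.44, adjusted p = 0.0476, edgeR). That call was lost in 8 of 20 alternatives. Among these were only the 6 libraries compared and leaving out control replicate 1 or 3, any 1 PSCI library or taVNS replicate 2. In taVNS libraries Uba7 was at 2.45, 4.55 and 6.42 CPM, overlapping both other groups.

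Of 51 tested other interferon-stimulated genes 15 rose in PSCI (29.4%, against 7.71% of all genes) and 5 fell in taVNS (9.80%, against 4.91%). Ifitm3, a membrane protein that blocks virus entry, was at 16.4, 19.1 and 17.4 CPM in PSCI and 1.79, 2.34 and 1.47 CPM in control libraries, with a log2 fold change of 3.23 ± 0.35 (adjusted p = 0.00136, edgeR). In taVNS libraries it was at 2.17, 3.50 and 5.94 CPM and fell by 2.18 on the log2 scale against PSCI (adjusted p = 0.00766, edgeR), a call made under each alternative. Gbp2, a guanylate-binding protein, was at 12.3, 28.8 and 22.7 CPM in PSCI and 2.97, 3.68 and 2.35 CPM in control libraries (log2 fold change 2.82 ± 0.33), and at 5.11, 6.22 and 7.45 CPM in taVNS libraries.

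Ifi47, an immunity-related GTPase, had a log2 fold change of 2.22 ± 0.38 in PSCI against control and -1.67 ± 0.37 in taVNS against PSCI. Sp110 had 1.45 ± 0.26 and -1.04 ± 0.26 in the same comparisons. The fall of Ifi47 (adjusted p = 0.0327, edgeR) was lost in 8 of 20 alternatives. That of Sp110 (adjusted p = 0.0485, edgeR) was lost in 16 of 20. Sp100, a protein of nuclear bodies, rose by 2.03 ± 0.33 on the log2 scale in PSCI, with values of 6.52, 8.18 and 10.04 CPM in taVNS, 12.5, 21.2 and 17.0 CPM in PSCI and 3.38, 6.30 and 2.72 CPM in control libraries. Igtp rose by 1.31 ± 0.24 on that scale in PSCI, and its deposited counts were not whole in 5 libraries. Of the 16 genes of these lists with the smallest adjusted p (at most 6 a list), 11 kept their call in PSCI against control under all 20 alternatives. In taVNS against PSCI 10 were called, and 2 of these, Myd88 and Ifitm3, kept the call under all 20.

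**Figure D4:**
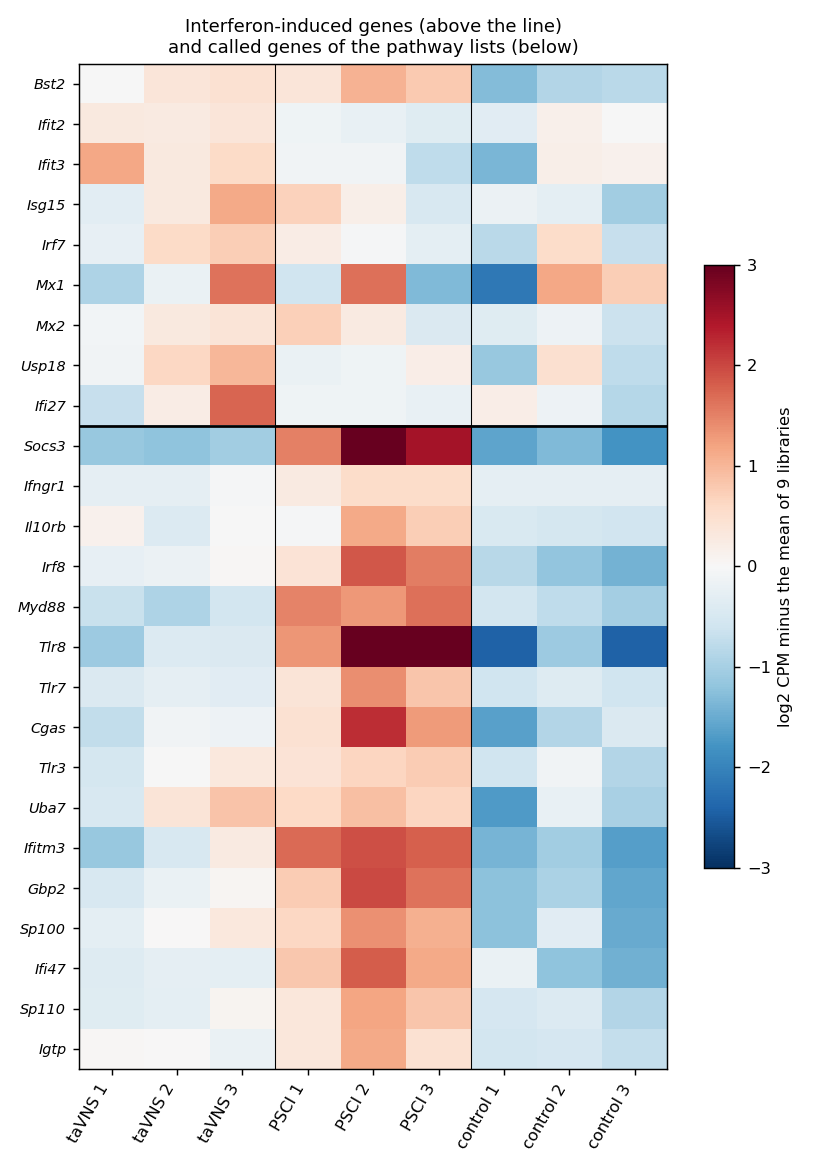
Log2 CPM of the 9 interferon-induced genes (above the line) and of 16 called genes of the pathway lists (below) minus the mean of each gene over the 9 libraries, on a colour scale cut at -3 and 3. The genes below the line were chosen by their calls, so that they are higher in PSCI than in control is built in. Uba7 in taVNS replicate 3 and Il10rb in taVNS replicates 1 and 3 reach into the PSCI range. Above the line Mx1 and Ifi27 vary within groups.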

How the data were processed

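Poly(A)-selected RNA of 9 rat hippocampi was sequenced, 3 each from taVNS, PSCI and control rats. The gene counts are expected counts, as the deposited values show; the authors' RPKM, with 2 decimals, are scaled by length and depth. Per the submitters' processing notes HISAT2 2.0.4, RSEM 1.2.8 and the build mRatBN7.2 were used; each tool's role is not given in the sources used here. Expected counts were rounded, filtered with filterByExpr, scaled by TMM over tested genes and tested with edgeR 4.0.16 (glmQLFit, all 9 libraries on group, 6 residual degrees of freedom; R 4.3.3). The fit was tested on simulated data drawn with the same spread for every gene, so genes as variable as Mx1 or Ifi27 were not covered. DESeq2 1.42.0 and limma 3.58.1 gave alternatives, as did other scalings and filters, RPKM with 0.1 or 1 added, a replicate block and leaving libraries out. Log2 CPM used a prior count of 2. The SE is the fold change over the root of F. The members and lists were chosen with earlier results of these data known. Named pathway genes are called genes, at most 6 a list by adjusted p; any ligand, receptor or signalling gene and the 6 genes nearest in profile could also be named. Symbols not in the tables were sought through RefSeq identifiers and synonyms. Nothing in the labels says whether libraries share a batch, and p-values measure the spread between these rats. One gene of the signalling list is not reported here.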

Additional observations from a re-analysis of the deposited data

How the results depend on the processing

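Bst2 in PSCI against control passed the threshold in each of 20 alternatives. Over the 27 fold changes of the 9 genes, 513 alternative values kept direction and side of the threshold, and 3 newly passed it: Bst2 in taVNS against control and Ifit2 in taVNS against PSCI by DESeq2, and Mx2 in PSCI against control without PSCI replicate 3. The direction turned in 30, none of them called, and the cause was not tested. Leaving out 1 library at a time, the log2 fold changes that turned in PSCI against control ran from -0.48 to 0.15 for Ifit3, -0.22 to 0.30 for Ifi27, -0.077 to 0.76 for Irf7, -0.027 to 0.97 for Usp18 and -1.39 to 0.57 for Mx1. In taVNS against PSCI they ran from -0.18 to 0.66 for Isg15, -0.30 to 0.26 for Mx2 and -0.98 to 1.53 for Mx1, and in taVNS against control from -0.99 to 0.67 for Mx1. In PSCI against control Ifit3 was at 0.046 by limma-voom and at 0.071 and 0.0042 from RPKM with 0.1 or 1 added, Mx1 at -0.023 from RPKM with 1 added, and Ifi27 at -2.0e-05 with the replicate block. In taVNS against PSCI Mx2 was at 0.020 by limma-voom and 0.0084 with the replicate block, and Mx1 at -0.00058 with Mx1 and Mx2 added into 1 gene. With PSCI replicate 2 and taVNS replicate 3 both left out, Mx1 was at -1.41 in PSCI against control and -0.999 in taVNS against control, and Isg15 at -0.20 in taVNS against PSCI.

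Over all genes, PSCI against control gave 1461 calls, with 2257 by DESeq2 and 806 from only the 6 libraries compared. taVNS against PSCI gave 854, with 1550 by DESeq2, 480 by limma-voom, 250 from the 6 libraries, 518 with the replicate block and 361 with PSCI replicate 2 and taVNS replicate 3 left out. taVNS against control gave 0, with 10 by DESeq2 and 1 with those libraries left out. DESeq2 called 1 member in taVNS against PSCI and 1 in taVNS against control. Pathway calls were 16 from the 6 libraries in PSCI against control, and in taVNS against PSCI 6 by limma-voom, 5 from the 6 libraries and 6 with those libraries left out. Leaving out 1 library gave 548 to 2255, 172 to 1707 and 0 to 1 calls over all genes in the 3 comparisons, 13 to 39 and 3 to 22 pathway calls, and 1 to 2 members in PSCI against control. Same-numbered libraries of different groups did not deviate together in every pair (correlations -0.468 to 0.255), so the numbers were not taken to pair rats. The replicate block changed no call of a member. Among the named pathway genes it lost the rises of Il10rb and Tlr3 and the falls of Irf8, Ifi47 and Sp110, and added Irf9 in PSCI against control and Cgas in taVNS against PSCI. Isg15, Ifit3 and Usp18 rested on 9 to 77 counts a library, which limits their precision.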
